A study of Mus musculus with 36 samples.

Results

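Lpcat3 and 7 other lysophospholipid acyltransferase genes were followed in mouse liver: Lpcat1, Lpcat2, Lpcat4, Mboat1, Mboat2, Mboat7 and Lpgat1. They were chosen by gene name, and all 8 were found among the 49315 genes of the table. Liver polyA RNA came from 36 male mice aged 11 to 12 weeks, 4 in each of 9 groups. The mice carried tryptophan (W) at residue 441 of the liver X receptor LXRalpha, or phenylalanine (F) in its place after CRISPR editing, on neither copy (W/W, the controls), on 1 copy (W/F) or on both (F/F). In each genotype 4 mice ate normal chow, 4 ate a high fat, high cholesterol diet that promotes metabolic steatohepatitis (MASH diet, Teklad TD.96121) for 4 weeks with vehicle, and 4 ate the same diet with the LXR agonist T0901317 at 10 mg/kg. Vehicle and T0901317 were given daily by oral gavage over the final 2 weeks. The labels name no tissue-specific driver or inducible allele. T0901317 also activates LXRbeta, which was not edited. The chow mice were a separate cohort for which the labels name no gavage, so diet, cohort and any effect of gavage cannot be told apart.

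Phospholipids exchange their fatty acyl chains after they are made: a phospholipase removes a chain, and a lysophospholipid acyltransferase adds another to the lysophospholipid that is left. The enzyme that acts decides which chain enters and which head group receives it, and so how saturated a membrane is. In liver, LPCAT3 places polyunsaturated chains into phosphatidylcholine and phosphatidylethanolamine, which eases the loading of lipid into lipoproteins, and its gene is a known target of LXR. LXRalpha is a nuclear receptor for oxidised cholesterol that switches on genes of cholesterol efflux and fatty acid synthesis.

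The promoters of Lpcat3 and Lpcat2 are shown because Lpcat3 rose with T0901317 in all 3 genotypes, whereas Lpcat2 fell with it in W/F mice. Each runs 5′ to 3′ on the gene's strand from 250 bases before the start to 50 after it (RefSeq, GRCm38.p6), at chr6:124662854-124663153, plus strand, for Lpcat3 and chr8:92855083-92855382, plus strand, for Lpcat2. Capitals mark GC boxes (GGGCGG) and CCAAT boxes (CCAAT) on either strand, and no base belongs to both kinds.

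Lpcat3: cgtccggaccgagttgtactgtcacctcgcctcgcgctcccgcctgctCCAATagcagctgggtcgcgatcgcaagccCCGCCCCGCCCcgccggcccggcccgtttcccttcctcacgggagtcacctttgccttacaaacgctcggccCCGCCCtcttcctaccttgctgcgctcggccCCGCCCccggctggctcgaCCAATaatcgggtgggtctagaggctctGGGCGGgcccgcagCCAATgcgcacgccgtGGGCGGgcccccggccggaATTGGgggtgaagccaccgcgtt

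Lpcat2: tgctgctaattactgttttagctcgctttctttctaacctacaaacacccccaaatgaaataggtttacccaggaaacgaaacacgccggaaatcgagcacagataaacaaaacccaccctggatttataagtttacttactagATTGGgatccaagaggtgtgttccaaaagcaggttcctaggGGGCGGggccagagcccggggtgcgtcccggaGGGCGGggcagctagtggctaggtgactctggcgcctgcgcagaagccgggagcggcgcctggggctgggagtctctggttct

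The Lpcat3 promoter held 6 GC boxes, and 1.36% of 32544 promoters of this length held as many. It held 4 CCAAT boxes, as many as 1.06% of promoters did. The Lpcat2 promoter held 2 GC boxes, with as many in 19.6% of promoters, and 1 CCAAT box, present in 37.4%. LXR binds, together with its partner RXR, to repeats of a short site. The sequence AGGTCA, then 4 bases of any kind, then AGGTCA was searched on both strands. The closest match in the Lpcat3 promoter kept 8 of the 12 fixed bases on the minus strand, shown with matching bases in capitals.

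Lpcat3, closest match: AGGTaggaagAGGgCg

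Lpcat2, closest match: AGGTttacccAGGaaA

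The Lpcat2 promoter also reached 8 of the 12 bases, on the plus strand. A match of 8 or more was present in 76.9% of all promoters and 1 of 10 or more in 3.03%. Of the other members, Mboat7 and 1 of the 2 Lpgat1 promoters reached 9 bases, a count found in 21.9% of promoters. No statement about receptor binding follows from these windows.

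Expression was deposited as TPM (transcripts per 1000000), which compares levels per unit of gene length. Low TPM values are spaced by single reads, and that spacing gave 18.07 to 35.82 M reads per library (M, 1000000), with a median of 23.91. The composition of the libraries shifted with genotype and diet: over all genes tested, the median log2 difference of F/F against W/W vehicle mice was 0.70. Fold changes are therefore given as deposited and, as "rescaled", after dividing each library by its median ratio over 10269 genes. The 8 hepatocyte markers were present in all groups. Their sums were 70459 to 91583 TPM in W/W vehicle mice, 57813 to 65457 in W/F vehicle mice and 35539 to 38554 in F/F vehicle mice, without overlap, against 66144 to 86381 in F/F chow mice and 51432 to 66949 in F/F mice given T0901317. Macrophage markers summed to 229.4 to 390.2 TPM in W/W vehicle mice, 3149 to 4270 in W/F vehicle mice and 3615 to 4709 in F/F vehicle mice. Bile duct cell markers summed to 53.98 to 61.42 TPM in W/W vehicle mice and 2908 to 3554 in F/F vehicle mice. In whole liver, fewer cells of a type and less RNA per cell cannot be told apart.

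Lpcat3 rose with T0901317 in all 3 genotypes and was lower in F/F than in W/W mice under each of the 3 treatments. It was the most abundant of the 8 genes in every group except W/F chow and F/F chow, where the mean of Lpgat1 was higher. In W/W mice Lpcat3 stood at 90.6, 73.1, 63.2 and 89.5 TPM on chow, at 111.2, 103.4, 83.0 and 95.8 TPM with vehicle, and at 210.4, 218.6, 174.2 and 186.3 TPM with T0901317. The treated mice lay above all vehicle mice, and the chow and vehicle mice overlapped.

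In W/F mice Lpcat3 stood at 61.4, 59.99, 59.3 and 38.7 TPM on chow, at 73.7, 82.2, 64.7 and 71.7 TPM with vehicle, and at 106.3, 119.0, 106.6 and 129.4 TPM with T0901317. The 3 treatments did not overlap. In F/F mice it stood at 47.0, 29.1, 41.2 and 43.5 TPM on chow, at 63.7, 65.9, 58.5 and 61.6 TPM with vehicle, and at 97.2, 122.4, 117.7 and 104.4 TPM with T0901317, again without overlap. From the lowest mean to the highest, the order was F/F chow, W/F chow, F/F vehicle, W/F vehicle, W/W chow, W/W vehicle, F/F T0901317, W/F T0901317 and W/W T0901317. Neighbours in this order overlapped in every case but the last, where all W/W mice with T0901317 lay above all W/F mice with T0901317.

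**Figure D1:**
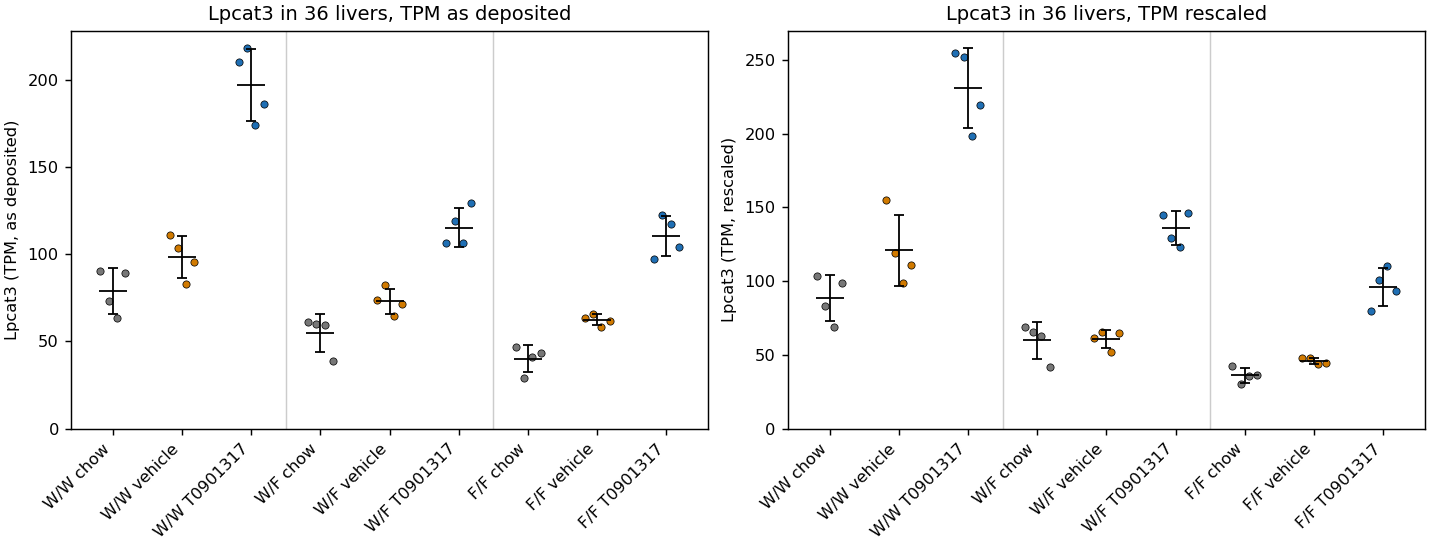
Lpcat3 level in TPM in each of 36 livers, as deposited (left) and rescaled (right), by genotype and treatment; points are mice, horizontal lines the mean and bars the SD (n = 4). The W/W mice with T0901317 lie between 174.2 and 218.6 TPM as deposited, above all other mice.

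T0901317 raised Lpcat3 by 1.00 ± 0.14 (SE) on the log2 scale in W/W mice, from 98.4 ± 12.0 to 197.4 ± 20.65 TPM (SD, n = 4 each, limma adjusted p = 5.8e-06). Of the 7 members tested, Lpcat3 alone was called here, against a background of 10.8% of genes called, 7.87% higher and 2.91% lower. In W/F mice Lpcat3 rose by 0.65 ± 0.14 (limma adjusted p = 0.000156), with 1 member called higher and 5 lower, against 6.59% of genes called higher, 59.3% lower and 65.9% in all. In F/F mice it rose by 0.81 ± 0.14 (limma adjusted p = 0.000102), with 2 members called higher and 2 lower, against 3.95% of genes called higher, 31.2% lower and 35.1% in all. Rescaled, the Lpcat3 rises were 0.94, 1.15 and 1.04 for W/W, W/F and F/F. The W/F and F/F responses did not pass the test for a difference from the W/W response: -0.35 in W/F (95% interval -0.75 to 0.05, limma adjusted p = 0.129) and -0.19 in F/F (-0.59 to 0.21, limma adjusted p = 0.478). Those intervals allow a response smaller by as much as 0.75 and 0.59. Rescaled, the differences had the other sign, at 0.21 and 0.10, and were not called.

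Another 3 LXR target genes were measured beside it. Srebf1, the regulator of fatty acid synthesis genes, rose with T0901317 in all 3 genotypes, by 0.88, 2.67 and 2.43 for W/W, W/F and F/F. Its W/F response exceeded the W/W response by 1.79 and its F/F response by 1.55 (limma adjusted p = 1.33e-05 and 0.000451). Scd1, which desaturates fatty acids, rose by 1.51, 1.92 and 5.36 in W/W, W/F and F/F mice. Its F/F response exceeded that of W/W by 3.86 (limma adjusted p = 1.23e-07), and its W/F response did not pass that test, at 0.41. These responses started from lower levels in the mutants. With vehicle Scd1 averaged 7896, 513.5 and 13.1 TPM in W/W, W/F and F/F mice, and Srebf1 averaged 397.8, 61.8 and 23.8 TPM. With T0901317 Scd1 averaged 21770, 1900 and 582.7 TPM, and Srebf1 averaged 675.1, 395.9 and 132.7 TPM. Both genes thus remained lower in the mutants than in W/W mice with T0901317. Abca1, the cholesterol efflux transporter, rose by 0.78 in W/W and 0.67 in F/F mice, and was not called in W/F mice, at -0.17 as deposited and 0.32 rescaled. Its W/F response was below that of W/W by a log2 difference of -0.95 (limma adjusted p = 0.00035), or -0.41 and not called rescaled, and its F/F response differed by -0.11 and was not called. Transcripts of the receptor gene Nr1h3 had group means from 86.8 to 108.04 TPM as deposited. Against W/W vehicle mice Nr1h3 was at 0.13 in W/F and 0.06 in F/F, neither called. Rescaled, it was at -0.42 and -0.66 (limma adjusted p = 0.000312 and 3.42e-07). Nr1h3 is the usual symbol of LXRalpha, although the study's design text gives Nr1h2, the usual symbol of LXRbeta. Nr1h2 averaged 23.1 TPM in W/W and 47.2 TPM in F/F vehicle mice. That log2 difference was 1.00 as deposited and 0.29 rescaled, both called.

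Between genotypes, Lpcat3 was lower in F/F than in W/W mice, with log2 differences of -0.96 on chow, -0.64 with vehicle and -0.83 with T0901317 (SE 0.14 each). The limma adjusted p was 2.84e-06, 0.000132 and 7.99e-06. The groups did not overlap under any treatment. On chow, 4 members were called higher and 1 lower, with 46.7% of genes called, 43.0% higher and 3.65% lower. With vehicle, 5 were higher and 2 lower, with 76.5% of genes called, 69.3% higher and 7.13% lower. With T0901317, 5 were higher and 2 lower, with 63.2% called, 56.3% higher and 6.96% lower. The members called lower were Lpcat3 under all 3 treatments, and Lpgat1 with vehicle and with T0901317. Rescaled, Lpcat3 was lower by larger amounts, with log2 differences of -1.26, -1.36 and -1.26. With vehicle the hepatocyte markers were also lower in F/F mice (mean sum 37275 TPM, against 81657 in W/W), and in F/F mice they were higher with T0901317 (56577), as Lpcat3 was. In F/F chow mice their mean sum was 76012, above that with vehicle, and Lpcat3 was lower on chow. In W/W mice it was 74947 with T0901317, where Lpcat3 was higher than with vehicle. On chow the marker sums of F/F (66144 to 86381) and W/W mice (68781 to 104850) overlapped, and their Lpcat3 levels did not. Some of these groups also differ in diet, cohort or T0901317, and the part of hepatocyte content in the Lpcat3 results was not tested.

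In W/F against W/W mice, the Lpcat3 difference was -0.53 on chow and not called (limma adjusted p = 0.106), although the mice did not overlap. No member was called there, against 0.487% of genes (0.198% higher, 0.288% lower), and Lpcat3 had an unadjusted p of 0.000662. Without W/W chow replicate 3 it was called, at -0.63. With vehicle Lpcat3 was lower by a log2 difference of -0.42 (limma adjusted p = 0.00866), or -0.97 rescaled (limma adjusted p = 1.47e-06). With T0901317 the difference was -0.77 (limma adjusted p = 0.00026), or -0.76 rescaled. With vehicle, 5 members were called higher and 1 lower (68.5% of genes called, 61.6% higher, 6.83% lower), and with T0901317 none higher and 2 lower, Lpcat3 and Lpgat1 (9.88% of genes called, 3.65% higher, 6.23% lower).

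F/F mice had less Lpcat3 than W/F mice on chow, at -0.44 (limma adjusted p = 0.013), or -0.70 rescaled, but the groups overlapped and the deposited call was lost without W/F chow replicate 1 (-0.38) or F/F chow replicate 2 (-0.29). With vehicle the difference was -0.22 (95% interval -0.50 to 0.07) and with T0901317 -0.06 (-0.35 to 0.22), neither of them called. Rescaled, the difference with T0901317 was -0.50 and was called (limma adjusted p = 0.00603). Between F/F and W/F mice, 4 members were called higher and 1 lower on chow (41.4% of genes called, 37.9% higher, 3.43% lower). With vehicle 2 were called, Lpcat4 at 1.12 and Mboat1 at 0.96 (21.3% of genes called). With T0901317 5 were higher and none lower (62.6% called, 58.5% higher, 4.08% lower).

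On the MASH diet with vehicle against chow, Lpcat3 rose in F/F mice by 0.64 ± 0.14 (limma adjusted p = 0.000253) and in W/F mice by 0.43 ± 0.14 (limma adjusted p = 0.0092). In W/W mice the difference was 0.32 and was not called (limma adjusted p = 0.139). Scaling decided 2 of these 3 calls. Rescaled, the W/F difference was 0.04 and not called, the W/W difference was 0.44 and called (limma adjusted p = 0.0351), and the F/F difference was 0.35 (limma adjusted p = 0.0475). The W/F call was also lost without chow replicate 4 (0.27), the lowest of the W/F chow mice, and W/F depths did not overlap between chow and vehicle, a difference whose part in the result was not tested. The diet responses of Lpcat3 did not pass the test for a difference from W/W: 0.11 in W/F (95% interval -0.29 to 0.51) and 0.32 in F/F (-0.08 to 0.73).

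In all, 10.2% of the Lpcat3 exon bases overlap Emg1 on the opposite strand, and the strand setting of the counting is not given in the sources used here. Reads from that stretch cannot be told apart. Emg1, a ribosome assembly gene chosen for this overlap, had group means from 15.9 to 28.1 TPM. With T0901317 in W/W mice it fell, at -0.29, while Lpcat3 rose. In F/F against W/W vehicle mice it was at 0.49 as deposited and -0.21 rescaled, beside -0.64 and -1.36 for Lpcat3. Lpcat3 lies at chr6:124663027-124704418 on the plus strand (GRCm38, GENCODE M21).

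Lpcat1, Lpcat2, Lpcat4 and Mboat1 were scarce in W/W livers and higher in W/F and F/F vehicle mice. LPCAT1 is best known for placing saturated chains into surfactant phosphatidylcholine in lung. LPCAT2 serves inflammatory cells, where it also makes platelet-activating factor. LPCAT4 and MBOAT1 act on lysophospholipids that carry ethanolamine and, for MBOAT1, serine.

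Lpcat2 stood at 1.28, 1.61, 1.22 and 2.55 TPM in W/W vehicle mice, at 15.2, 16.6, 14.2 and 12.0 TPM in W/F vehicle mice, and at 14.3, 16.2, 11.1 and 13.7 TPM in F/F vehicle mice. Both mutant groups lay above all W/W mice. With T0901317 it stood at 1.44, 8.65, 2.05 and 2.16 TPM in W/F mice and at 15.01, 14.9, 9.89 and 10.3 TPM in F/F mice. The treated W/F mice lay below the vehicle mice and the treated F/F mice overlapped theirs. Lpcat2 was higher than in W/W vehicle mice by 2.56 ± 0.27 in W/F and 2.49 ± 0.27 in F/F on the log2 scale (limma adjusted p = 1.62e-09 and 1.16e-09). T0901317 lowered it in W/F mice, with a log2 change of -1.99 (limma adjusted p = 2.08e-07), and the change was -0.14 in F/F mice and 0.26 in W/W mice, neither of them called. The W/F response differed from that of W/W by -2.25 (limma adjusted p = 1.08e-05).

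W/F T0901317 replicate 2, with 8.65 TPM of Lpcat2, also had the highest summed macrophage markers of its group, 1350 TPM against 184.3 to 291.4 in the other 3. Without it the Lpcat2 change in W/F mice was -2.43. The summed macrophage markers were 92.17 to 187.9 TPM in W/F chow mice, where Lpcat2 averaged 0.892 TPM, and 3149 to 4270 TPM in W/F vehicle mice, where it averaged 14.5 TPM. In F/F mice they were 3615 to 4709 TPM with vehicle and 1488 to 2311 TPM with T0901317, without overlap, while Lpcat2 averaged 13.8 and 12.5 TPM. The part of these cells in the Lpcat2 result was not tested.

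Lpcat1 stood at 0.599, 0.956, 0.707 and 1.498 TPM in W/W vehicle mice, at 6.36, 7.29, 8.67 and 7.13 TPM in W/F vehicle mice and at 7.90, 7.33, 7.67 and 10.04 TPM in F/F vehicle mice. It was higher by 2.12 in W/F and 2.26 in F/F (limma adjusted p = 1.29e-11 and 9.82e-13). With T0901317 it fell in W/F mice, to 1.07, 3.47, 1.60 and 1.22 TPM, a log2 change of -1.62 (limma adjusted p = 3.92e-09). The change in F/F mice was -0.32 and not called.

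Among vehicle mice, Lpcat4 stood at 0.585, 0.825, 0.607 and 0.939 TPM with the W/W genotype, at 4.27, 4.00, 2.80 and 2.33 TPM with W/F and at 9.55, 8.85, 7.92 and 6.9999 TPM with F/F. The 3 genotypes did not overlap. It fell with T0901317 in both mutants, with log2 changes of -1.06 in W/F and -0.96 in F/F (limma adjusted p = 2.99e-05 and 0.000748). Whether its response differed between the mutants was not tested.

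Mboat1 was the least abundant of these 4, with vehicle means of 0.145 ± 0.0493, 1.31 ± 0.579 and 3.42 ± 0.307 TPM for W/W, W/F and F/F (SD over 4 mice). It also fell with T0901317 in both mutants, with log2 changes of -0.58 and -0.89. On chow the 4 genes were higher in F/F than in W/W mice by 0.72 to 1.36 on the log2 scale, while none of them was called between W/F and W/W. Diet raised all 4 in W/F mice, by 0.97 to 3.04, and in F/F mice, by 1.08 to 1.63, and none of the 4 was called in W/W mice. The diet response exceeded that of W/W for all 4 genes, by 1.10 to 2.60 in W/F and by 1.14 to 1.40 in F/F. Rescaling kept the direction of all these called differences. It ended the call of Lpcat2 for the difference between the F/F and W/W responses to diet (1.14 as deposited, 0.75 rescaled, limma adjusted p = 0.114). It also ended the call of Mboat1 for the difference between the W/F and W/W responses to T0901317 (-0.66 as deposited, -0.43 rescaled, limma adjusted p = 0.0687). The fall of Mboat1 within W/F mice stayed called after rescaling, at -0.36 (limma adjusted p = 0.0296). In W/W mice Lpcat4 reached at most 0.992 TPM and Mboat1 at most 0.394 TPM. Both genes passed the filter of 1 TPM in 4 samples only through mutant mice, so their calls against W/W mice are not independent of that filter. The same limit applies to their diet and T0901317 calls within the mutants and to the differences between responses. Those calls use the vehicle mice, in which both genes were highest within each mutant. Counts of members called include both genes wherever they were called.

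With diet, 6 members were called higher and 1 lower in W/F mice (61.0% of genes called, 52.4% higher, 8.53% lower), and 5 higher and 1 lower in F/F mice (55.8% called, 46.5% higher, 9.27% lower). In W/W mice 1 was called, Lpgat1, lower (12.9% of genes called, 2.59% higher, 10.3% lower). Between the diet responses, 5 members were called higher in W/F (54.6% of genes called, 49.5% higher, 5.13% lower), and 4 higher and 1 lower in F/F (46.0% called, 41.5% higher, 4.54% lower). Between the T0901317 responses, 5 were called lower in W/F (58.5% of genes called, 5.27% higher, 53.2% lower) and 2 lower in F/F (30.4% called, 3.29% higher, 27.2% lower). With 7 members tested, these counts are read only against those shares. The diet and T0901317 comparisons of a genotype share their vehicle mice, so their counts are not independent. Rescaling moved the split between directions in several of them. It became 2 higher and 4 lower for T0901317 in W/F mice (51.3% of genes called after rescaling), 4 and 2 for W/F against W/W with vehicle (52.9%), and 4 and 3 for F/F against W/W with vehicle (59.3%). It became 1 higher and none lower for diet in W/W mice (15.5%) and 4 and 2 for F/F against W/F with T0901317 (40.3%). For the difference between the W/F and W/W responses to diet it became 4 and 1 (39.6%).

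**Figure D2:**
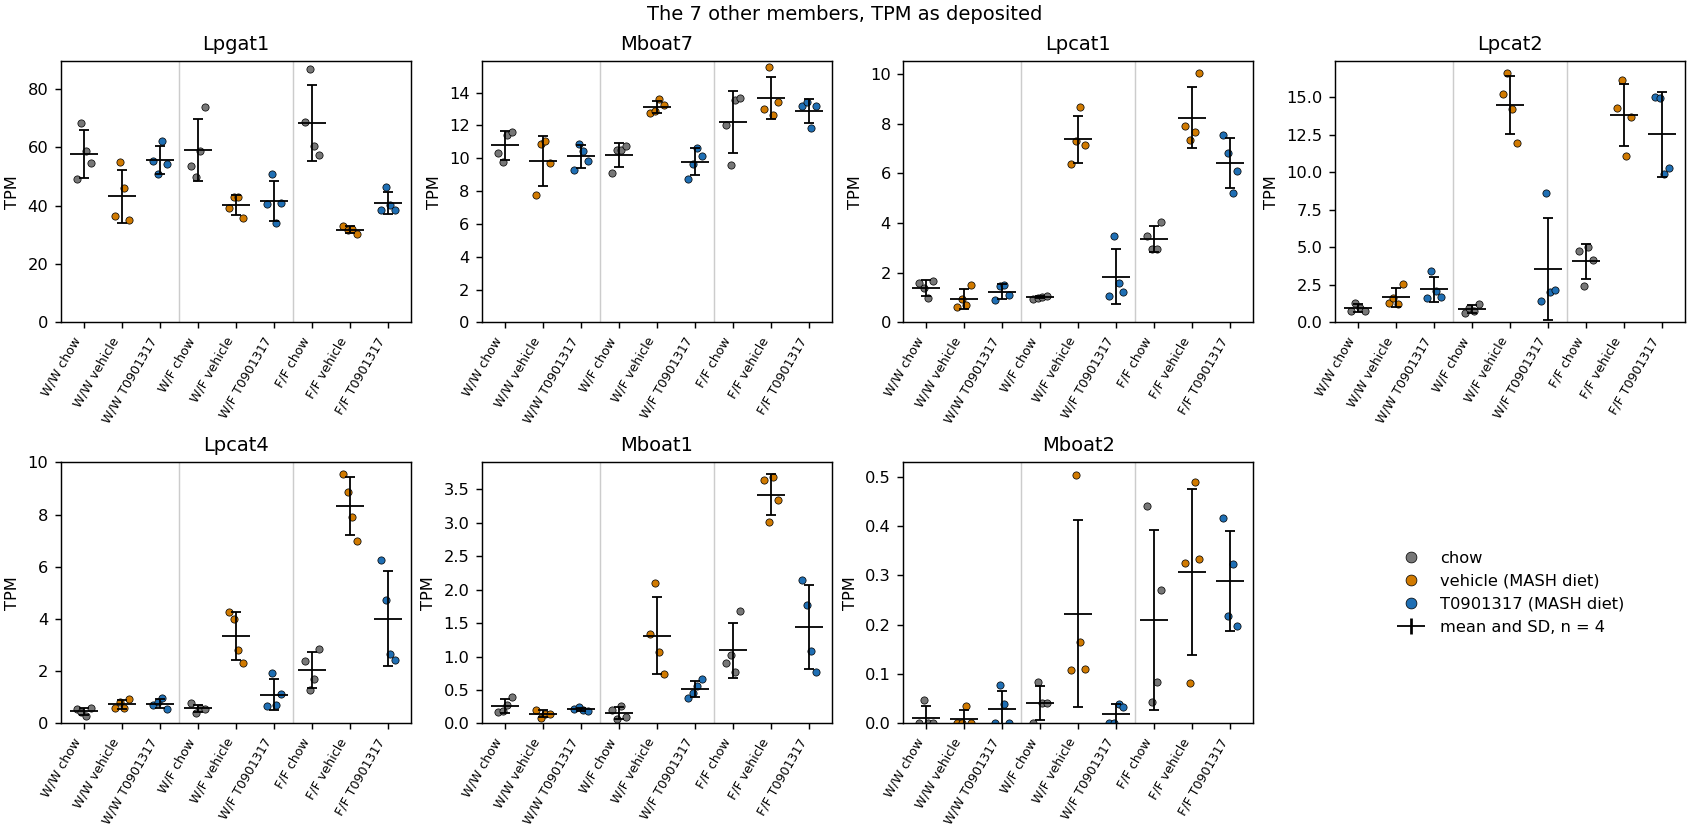
Levels of the 7 other genes in TPM as deposited, by genotype and treatment; points are mice, horizontal lines the mean and bars the SD (n = 4), and each panel has its own axis from 0. Lpcat1, Lpcat2, Lpcat4 and Mboat1 are high in W/F and F/F vehicle mice, and Mboat2 stays at or below 0.504 TPM.

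Mboat2, which acts on lysophospholipids with choline and ethanolamine, was present at 0 to 0.504 TPM. It did not reach the filter of 1 TPM in 4 samples and was not tested. It stood at 0 to 0.0772 TPM in W/W mice and at 0.0436 to 0.488 TPM in F/F mice, which is a description only. Read numbers are not given for Mboat2. The spacing of its values shows that the exon length used for depth is not the length behind its deposited TPM.

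Mboat7 and Lpgat1 were the other members above 5 TPM in every mouse. MBOAT7 places arachidonic acid into phosphatidylinositol and is linked to fatty liver. Mboat7 had group means from 9.79 to 13.7 TPM. As deposited it was higher in F/F than W/W vehicle mice by 0.44, but rescaled it was lower, at -0.23 (limma adjusted p = 0.00524). Of its 8 calls over the 19 contrasts, 1 remained a call after rescaling, with the sign turned. No direction is therefore given for Mboat7.

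Lpgat1, an acyltransferase of lysophosphatidylglycerol and lysophosphatidylethanolamine, fell with diet in the mutants. It stood at 68.8, 86.8, 60.5 and 57.5 TPM in F/F chow mice and at 33.2, 31.6, 32.1 and 30.4 TPM in F/F vehicle mice, without overlap. The log2 change was -1.06 ± 0.14 in F/F mice (limma adjusted p = 1.66e-07) and -0.53 ± 0.14 in W/F mice (limma adjusted p = 0.00131). The summed hepatocyte markers were lower in F/F vehicle than in F/F chow mice as well (means of 37275 and 76012 TPM), and their part in the fall was not tested. In W/W mice the Lpgat1 change with diet was -0.42 (limma adjusted p = 0.0375), and that call was lost after rescaling (-0.30) and without any 1 of 5 of the 8 libraries. The F/F diet response was more negative than that of W/W by -0.64 (limma adjusted p = 0.00858). With T0901317 the log2 differences of Lpgat1 were 0.38, 0.03 and 0.35 for W/W, W/F and F/F. The F/F value passed the test (limma adjusted p = 0.0454) and was lost without any 1 of 7 of the 8 libraries. The W/F value became 0.53 and was called after rescaling. Against W/W mice Lpgat1 was lower in F/F mice by -0.41 with vehicle (-0.29 and not called without W/W vehicle replicate 2) and by -0.43 with T0901317. Rescaled, these differences were -1.11 (limma adjusted p = 8.78e-08) and -0.85 (limma adjusted p = 1.53e-05). Between W/F and W/W vehicle mice Lpgat1 differed by -0.08 and was not called as deposited, and by -0.62 and was called rescaled (limma adjusted p = 0.000578). The W/F difference with T0901317, -0.42, was lost after rescaling (-0.41, limma adjusted p = 0.055) and without any 1 of 6 of the 8 libraries.

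**Figure D3:**
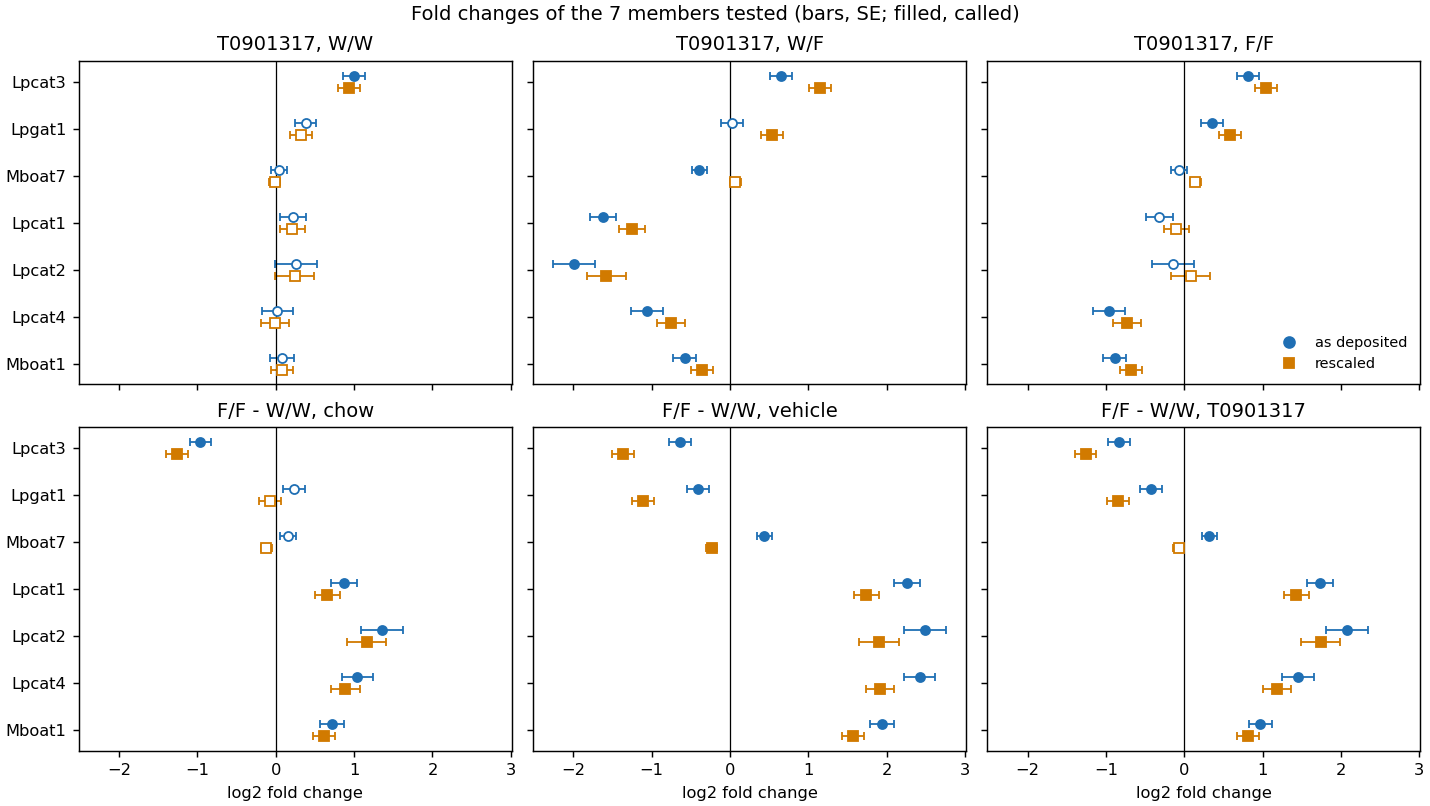
Log2 fold change of the 7 tested genes with T0901317 in each genotype (top) and in F/F against W/W under each treatment (bottom), as deposited (circles) and rescaled (squares); bars are SE, and filled symbols passed an adjusted p of 0.05. Lpcat3 lies right of 0 in all 3 upper panels and left of 0 in all 3 lower panels, and Mboat7 changes side between the scalings.

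The make-up of the 8 genes' summed level shifted accordingly. With vehicle the sums of W/W, W/F and F/F mice were 154.9 ± 13.6, 153.2 ± 10.96 and 142 ± 6.41 TPM (SD over 4 mice). Lpcat3 held 63.5% ± 5.59, 47.7% ± 2.82 and 43.96% ± 0.333 of them. Lpcat2 held 1.09%, 9.44% and 9.70%. With T0901317 the Lpcat3 shares were 73.6% ± 3.20, 66.5% ± 3.65 and 58.4% ± 3.49 in the same order. These shares are ratios within a library, so rescaling leaves them as they are.

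**Figure D4:**
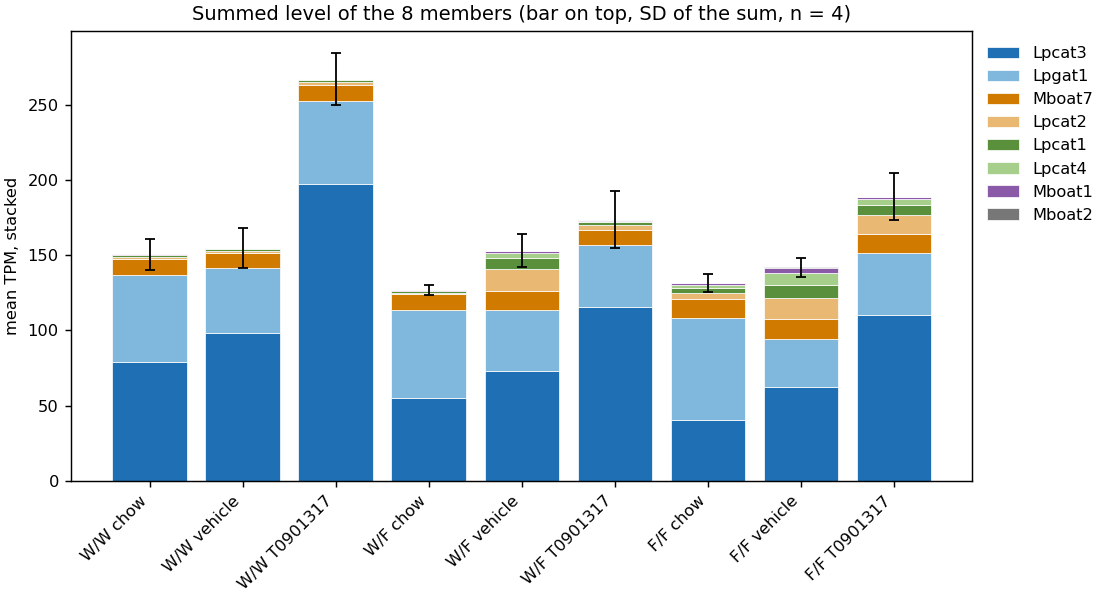
Mean level of the 8 genes in TPM as deposited, stacked, in each of the 9 groups (n = 4); the bar on top is the SD of the sum. The W/W mice with T0901317 have the highest sum, 267.6 TPM, of which Lpcat3 holds 73.6%.

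Genes of the neighbouring steps were read from lists, each beside all genes tested. With T0901317, 7.87% of all genes were called higher and 2.91% lower in W/W mice, 6.59% and 59.3% in W/F mice, and 3.95% and 31.2% in F/F mice. Rescaled, these shares were 8.21% and 5.40%, 19.5% and 31.8%, and 7.83% and 9.59%. The median log2 change of all genes as deposited was 0.06 in W/W, -0.49 in W/F and -0.24 for F/F. Among 11 other glycerolipid acyltransferases, which build phosphatidic acid and triglyceride, 6 rose and none fell with T0901317 in W/W mice, with a median log2 change of 0.35 beside 0.06 over all genes. Gpam, which starts glycerolipid synthesis in mitochondria, went from 31.5 ± 15.5 to 105.1 ± 23.8 TPM in W/W mice (log2 change 1.82). In W/F mice 1 rose and 6 fell (median -0.37, all genes -0.49), and in F/F mice 2 rose and 3 fell (median -0.08, all genes -0.24). Gpat4 rose in both, by 1.01 and 0.69. Rescaled, 4 rose and 1 fell in W/F mice and 3 rose and 1 fell in F/F mice. Between F/F and W/W vehicle mice 6 were higher and 2 lower as deposited (median 0.34, all genes 0.70, with 69.3% of all genes higher and 7.13% lower), and 4 higher and 7 lower rescaled (36.6% and 22.7% of all genes).

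Of 20 tested phospholipases and lysophospholipases, which supply the lysophospholipids, 5 rose with T0901317 in W/W mice, 3 rose and 11 fell in W/F mice, and 3 rose and 5 fell in F/F mice. Their medians were 0.21, -0.26 and -0.16, beside 0.06, -0.49 and -0.24 over all genes, and 11 of 20 lower in W/F mice lies near the 59.3% of all genes. Rescaled, 9 rose and 6 fell in W/F mice, and 4 rose and 1 fell in F/F mice. Pla2g6, a calcium-independent phospholipase, rose by 0.84 in W/W and 0.74 in F/F mice. Pla2g7, the secreted enzyme that degrades platelet-activating factor and is made by macrophages, stood at 3.66 ± 1.62 TPM in W/W and 65.2 ± 10.1 TPM in F/F vehicle mice, a log2 difference of 3.87. With T0901317 it fell by 3.04 in W/F mice. Abhd6, a monoacylglycerol and lysophospholipid hydrolase, rose by 1.26 in W/F mice.

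Of 22 tested genes of phospholipid synthesis, 8 rose with T0901317 in W/W mice, 3 rose and 13 fell in W/F mice, and 4 fell in F/F mice, with medians of 0.16, -0.48 and -0.13. In W/F mice both the 13 of 22 lower and the median lie near the values of all genes, 59.3% and -0.49. Lpin2, which makes diacylglycerol, rose by 1.07 in W/W mice. Chpt1, which forms phosphatidylcholine from diacylglycerol, was lower in F/F than in W/W vehicle mice, at 36.2 ± 2.63 against 79.8 ± 8.18 TPM (log2 difference -1.12). It rose by 0.95 with T0901317 in W/F mice. Rescaled, 8 of these genes rose and 4 fell in W/F mice, 2 rose in F/F mice, and 7 rose and 2 fell in W/W mice.

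Of 11 tested genes that supply polyunsaturated acyl-CoA, 8 rose and none fell with T0901317 in W/W mice, with a median of 0.72. Elovl5, which elongates polyunsaturated fatty acids, went from 317.5 ± 133 to 947.1 ± 90.3 TPM (log2 change 1.66). In W/F mice 3 rose and 1 fell as deposited, and 9 rose and 1 fell rescaled. In F/F mice 4 rose and 1 fell as deposited, and 7 rose and none fell rescaled. The deposited medians were 0.09 in W/F and 0.24 in F/F. Between F/F and W/W vehicle mice 2 were higher and 8 lower, with a median of -0.68 beside 0.70 over all genes. Acsl4, which activates arachidonic acid, was higher by 1.48, and Slc27a5, a hepatocyte acyl-CoA and bile acid-CoA ligase, was lower, with a log2 difference of -2.17.

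Of the 15 LXR target genes listed, Srebf1, Scd1 and Abca1 among them, 11 rose with T0901317 in W/W mice (median 0.88). In W/F mice 6 rose and 7 fell (median -0.17), or 7 and 4 rescaled, and in F/F mice 8 rose and 1 fell (median 0.67), or 11 and 1 rescaled.

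Over the 9 group means of log2(TPM + 1), the 5 genes most like Lpcat3 among 11196 were Epas1 (Pearson's r = 0.979), Pdk2 (0.969), Rab9 (0.967), Cox5a (0.965) and Rnf186 (0.964). The points share their libraries and composition, and r is a description. After rescaling, the 5 were Osbpl2, Ddo, Fam207a, L3hypdh and Srebf1, and none was shared with the first 5. Among the members, r to Lpcat3 as deposited was -0.27 for Lpcat1, -0.09 for Lpcat2, -0.25 for Lpcat4, -0.40 for Mboat7 and -0.22 for Lpgat1. Rescaled, these were -0.47, -0.27, -0.45, 0.72 and 0.33, so Mboat7 and Lpgat1 turned sign. For Srebf1 r was 0.92 as deposited and 0.97 rescaled.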

How the data were processed

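Liver polyA RNA of 36 mice was sequenced, with libraries made by an outside provider per the labels' protocols. The submitters' processing notes name Trimmomatic 0.36, STAR 2.5.2b, featureCounts, Subread 1.5.2 and the build GRCm38 (mm10), with no order or role. The annotation release and strand setting are not given in the sources used here. The authors deposited 1 table of TPM, and each column sums to 1000000.

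Groups and replicate numbers came from the labels. Values were tested as log2(TPM + 1) with limma 3.58.1 (R 4.3.3, variance trend) over 16638 genes (1 TPM or more in 4 or more samples), with 9 group means and 19 contrasts. Tests were two-sided and adjusted by Benjamini-Hochberg over all genes of a contrast, with a threshold of 0.05. Fold changes are on the log2(TPM + 1) scale, which understates changes of low genes. P-values measure the spread between mice, and the labels give no sequencing batch. Depth was fitted on genes of 0.02 to 0.4 TPM with GENCODE M21 exon lengths. The fit put 93.72% to 95.65% of genes below 20 reads within 0.1 of a whole read (20% by chance). Alternatives were a pseudocount of 0.1, a filter of 5 TPM, no filter, rescaled TPM, a replicate block, a fit of only the libraries compared, and leaving out each library. The fit was tested on simulated data.

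The members and lists were chosen with earlier results of these data known. Named genes were the 8 members, the called genes of each list with the largest rise and fall at a mean of at least 5 TPM, of which the text gives a selection, the 5 genes most like Lpcat3, and Abca1, Srebf1, Scd1, Nr1h3 and Nr1h2. Emg1 was added after the overlap was seen. Promoters came from RefSeq (GRCm38.p6), and all 8 members matched.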

Additional observations from a re-analysis of the deposited data

Results flagged for a closer look

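In 7 of 72 pairs of a gene and a group, 1 mouse lay far from the other 3, and chance gives about 1 in 20 for normally distributed values. These were Lpcat3 in W/F chow replicate 4 (38.7 TPM), Lpcat2 in W/F T0901317 replicate 2 (8.652 TPM), Mboat7 in W/F chow replicate 1 (9.126 TPM) and Mboat7 in F/F T0901317 replicate 3 (11.82 TPM). The other 3 were of Mboat2, which had few reads: W/W chow replicate 2 (0.047 TPM), W/W vehicle replicate 3 (0.0359 TPM) and W/F vehicle replicate 2 (0.5036 TPM). In the W/W chow and W/W vehicle groups the other 3 mice had 0 TPM of Mboat2. A flag was then certain, and the rate of 1 in 20 does not apply.

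Responses differed from that of W/W mice in 17 of 28 tests of the difference itself (limma, adjusted p under 0.05), and Lpcat3 was in none of them. Of all genes tested, 58.5% were called for T0901317 in W/F mice and 30.4% in F/F mice, and 54.6% and 46.0% for diet. The count is read only against those shares. Lpcat4 and Mboat1 passed the filter only through mutant mice, so their differences are not independent of it. For T0901317 in W/F mice the log2 differences were -1.84 for Lpcat1, -2.25 for Lpcat2, -1.08 for Lpcat4, -0.66 for Mboat1 and -0.44 for Mboat7. For T0901317 in F/F mice they were -0.98 for Lpcat4 and -0.97 for Mboat1. For diet in W/F mice they were 2.36 for Lpcat1, 2.60 for Lpcat2, 1.20 for Lpcat4, 1.10 for Mboat1 and 0.46 for Mboat7. For diet in F/F mice they were 1.40 for Lpcat1, 1.14 for Lpcat2, 1.38 for Lpcat4, 1.23 for Mboat1 and -0.64 for Lpgat1. Rescaled, 4 of the 17 were no longer called: both Mboat7 differences, which changed sign, Mboat1 for T0901317 in W/F mice (-0.43) and Lpcat2 for diet in F/F mice (0.75). Lpgat1 for diet in W/F mice became called (-0.61). With vehicle, macrophage marker sums were higher in W/F and F/F than in W/W mice, and bile duct marker sums were higher in F/F than in W/W mice. In F/F mice the macrophage sums averaged 4224 TPM with vehicle and 2048 TPM with T0901317, while Lpcat2 averaged 13.8 and 12.5 TPM. The part of these cells was not tested.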

How the results depend on the processing

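Rescaling had the widest effect. Lpcat3 became called for diet in W/W mice (0.44) and between F/F and W/F mice given T0901317 (-0.50), and lost its call for diet in W/F mice (0.04). Mboat7 turned sign in 8 called differences. Within W/F mice these were T0901317 (0.07) and diet (-0.02). Against W/W mice they were W/F with vehicle (-0.11), F/F with vehicle (-0.23) and F/F with T0901317 (-0.07). The others were F/F against W/F with T0901317 (-0.04) and the W/F minus W/W responses to T0901317 (0.08) and diet (-0.01). Members called became 3 for the difference between the W/F and W/W responses to T0901317 (44.0% of genes called after rescaling). Between treated W/F and W/W mice 1 was called (13.8%). List calls with T0901317 became 5 phospholipases and 2 phospholipid synthesis genes in F/F, and 10 polyunsaturated acyl-CoA genes in W/F. Fitting only the libraries compared ended the call of Lpcat3 for F/F against W/F on chow (-0.44), left 0 members called for diet in W/W and 5 phospholipid synthesis genes in W/W with T0901317. With no filter, 0 members were called for diet in W/W and 1 between W/F and W/W mice given T0901317. With a minimum of 5 TPM, and so fewer genes, 1 member was called for F/F against W/F with vehicle. The difference between the F/F and W/W responses to T0901317 then had 1 member called, and F/F with T0901317 had 3 acyltransferases called. A pseudocount of 0.1 gave 5 phospholipases there. The causes were not tested. Leaving out each library gave Lpcat3 0.27 to 0.49 for diet in W/F, -0.63 to -0.37 for the W/F and W/W chow mice and -0.59 to -0.29 for F/F against W/F on chow. Members called ranged 1 to 2 for T0901317 in W/W, 0 to 1 for diet in W/W, 0 to 1 between W/F and W/W on chow and 1 to 2 between them with T0901317. In F/F with T0901317, phospholipases called ranged 3 to 8, phospholipid synthesis genes 1 to 5 and polyunsaturated acyl-CoA genes 3 to 5, each lowest without T0901317 replicate 3. No pairing of mice by replicate number was detected, which does not exclude one. Deviations correlated at 0.016 on average within a number and at -0.005 between different numbers, and 11 of 36 libraries correlated best with their own. With the replicate block, Mboat7 became called for F/F against W/F on chow (0.23), Lpcat3 with T0901317 in W/W stayed at 1.00, and no count moved by over 1.5 times.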
